A study of Mus musculus with 6 samples.

Results

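Cholesterol handling in cultured mouse macrophages was examined through 29 genes for cholesterol synthesis, sterol sensing, and the transport and storage of cholesterol inside the cell. The genes were taken from a fixed list of symbols, each matched to 1 Ensembl identifier through the GENCODE M21 annotation of the mouse genome (build GRCm38). They are 29 of 46603 genes in the count tables and 29 of the 12767 genes with enough counts to be tested. The list holds 8 genes of the mevalonate and isoprenoid steps, 12 of the squalene and sterol steps, 4 sterol sensing genes, and 5 genes for transport, esterification and ester hydrolysis. It was chosen with earlier results of these data known, so its counts beside the shares over all genes are descriptions and not blind comparisons.

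The cells were bone marrow-derived macrophages of the mouse strain C57BL/6/J, aged 7 weeks, grown with 20% medium conditioned by L929 cells, a fibroblast line that secretes macrophage growth factor, and with 10% fetal bovine serum. They were lifted on day 6, plated at 800000 cells per well of a 12-well plate, and 6 h later given medium conditioned by cancer cells. In 3 libraries this medium held lipids and in 3 it was without lipids, and every other stated condition was shared by both groups. Which cancer cells conditioned the medium, how its lipids were taken out and how long the macrophages were exposed is not given in the sources used here. No group without conditioned medium was analysed here. Bulk poly(A) RNA sequencing counted the reads of each gene, and the comparison asked which transcripts differed with the lipid content of the medium.

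As background, cells build cholesterol from acetyl-CoA through mevalonate, isoprenoid diphosphates, squalene and lanosterol. When sterols in the endoplasmic reticulum are scarce, the carrier SCAP takes the transcription factor precursor SREBP2 to the Golgi, where it is cut and released to switch on most genes of this pathway. When sterols are plentiful, INSIG proteins hold the complex back. Cholesterol that arrives in lysosomes is handed from NPC2 to NPC1 for export, SOAT1 turns the excess into cholesteryl esters in lipid droplets, and NCEH1 is among the enzymes that release it again. Macrophages take up much cholesterol from lipoproteins and dead cells, so this handling is known to matter in foam cells.

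Libraries held 20778651 to 25323053 counts with lipids and 19429022 to 22330119 without. Replicates within a group correlated at 0.996 to 0.997 with lipids and 0.992 to 0.995 without (Pearson's r of log counts across genes). The median SD over all genes was 0.07 with lipids and 0.13 without, on the log2 scale of counts per 1000000 (CPM). All 8 macrophage markers were expressed, summing to 29180 to 29530 CPM with lipids and 29500 to 34380 CPM without. Of these, Itgam and Fcgr1 were higher and Cd68 was lower with lipids. Marker sums of neutrophils, dendritic cells, B cells, T and NK cells, epithelial cells, mast cells, erythroid cells and megakaryocytes were at most 2.30 CPM in any library, with Ly6g and Cd3e at 0 throughout. Fibroblast markers summed to 119.7 to 126.7 CPM with lipids and 124.4 to 169.2 CPM without, with 1 of 6 tested markers lower with lipids (Col3a1, log2 fold change -0.50, edgeR adjusted p = 0.014). Their part in the results was not tested. Whether replicates are separate mice or cultures is not stated, so the p-values reflect only how these libraries spread, and that spread may be technical.

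With lipids in the medium, 6 of the 29 genes were lower and 1 was higher (edgeR quasi-likelihood test, Benjamini-Hochberg adjusted p under 0.05 over all 12767 genes). Over all genes, 6.87% were lower and 4.58% higher by the same test. DESeq2 called the same 7 genes, against 7.37% lower and 4.87% higher over all genes. With library totals as the only scaling, 5 were lower and 1 higher, against 4.67% and 9.72%. The lower genes were Soat1, Npc2, Npc1 and Nceh1, which store, export or release cholesterol, and the synthesis genes Mvd and Lss. The higher gene was Lbr, whose product is both a sterol reductase and a receptor for lamin B. In all, 24 of 29 fitted differences were negative, with a median of -0.18 against -0.003 over all genes, on the log2 scale, with lipids minus without. In a bulk sample, fewer cells of a type and less RNA per cell cannot be told apart.

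**Figure D1:**
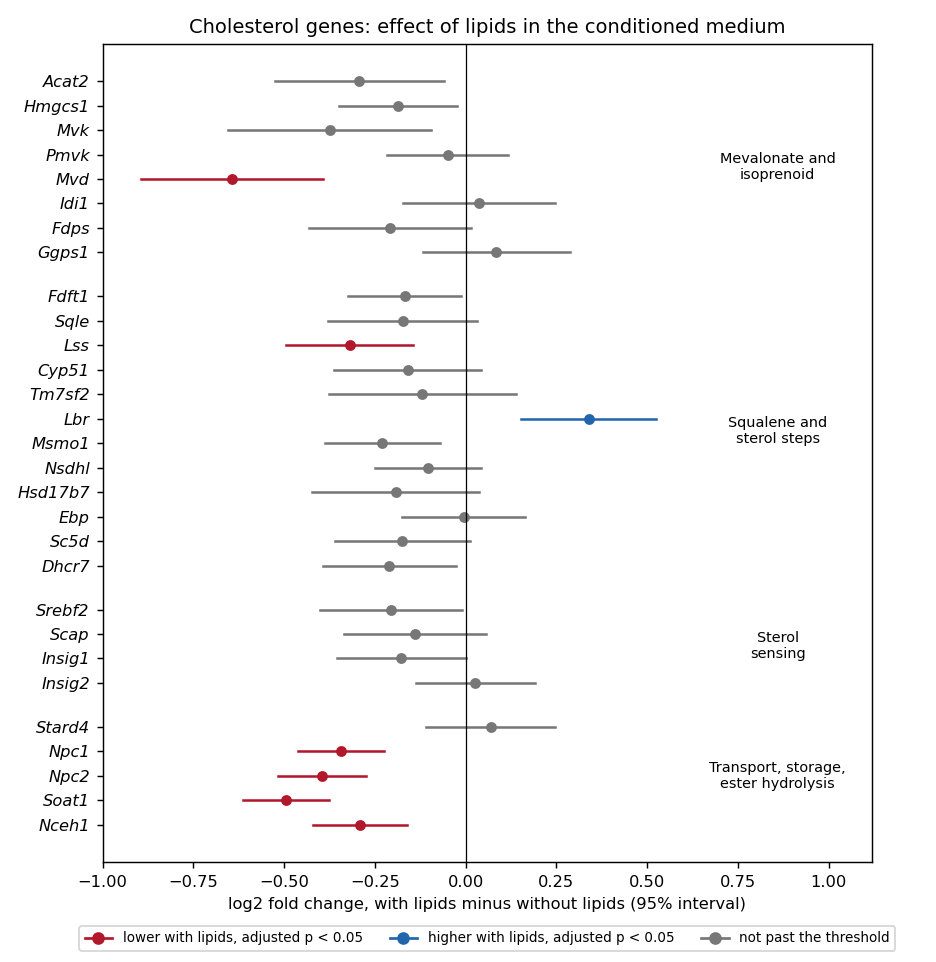
Log2 fold change, with lipids minus without, of each of the 29 genes, grouped by role from top to bottom. Points are edgeR estimates from 3 libraries per group and bars are 95% intervals. Estimates were negative for 24 genes and positive for 5. Past an adjusted p of 0.05 there were 6 lower genes (red), 4 of them for transport and storage, and 1 higher gene, Lbr (blue).

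The DNA before the start sites of these genes is shown for Soat1, Nceh1, Npc2, Mvd and Lss, which fell with lipids, for Lbr, which rose, and for Hmgcs1, an early enzyme of the pathway and a textbook SREBP2 target. Sequences are from RefSeq (build GRCm38.p6), 150 bases each, 5′ to 3′ on the gene's strand, ending at the RefSeq start or just before the first GENCODE exon where that lies further upstream. The window of Lbr lies between 2 annotated exons of the gene, and the others lie upstream of every annotated exon. Capitals mark the string CCAAT on either strand (ATTGG when on the other strand), to which the factor NF-Y binds beside many SREBP sites, and the sterol regulatory element string TCACNCCAC.
Soat1 (chr1:156474332-156474481, minus strand): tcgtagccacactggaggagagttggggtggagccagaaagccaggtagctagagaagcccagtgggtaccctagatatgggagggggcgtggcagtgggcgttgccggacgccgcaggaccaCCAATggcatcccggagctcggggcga
Nceh1 (chr3:27182815-27182964, plus strand): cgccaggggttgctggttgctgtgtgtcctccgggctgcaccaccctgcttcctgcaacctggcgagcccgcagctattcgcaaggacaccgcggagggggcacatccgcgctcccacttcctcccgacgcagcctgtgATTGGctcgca
Npc2 (chr12:84773153-84773302, minus strand): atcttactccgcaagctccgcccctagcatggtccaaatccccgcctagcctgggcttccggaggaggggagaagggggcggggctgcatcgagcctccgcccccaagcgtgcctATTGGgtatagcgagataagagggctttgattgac
Mvd (chr8:122443423-122443572, minus strand): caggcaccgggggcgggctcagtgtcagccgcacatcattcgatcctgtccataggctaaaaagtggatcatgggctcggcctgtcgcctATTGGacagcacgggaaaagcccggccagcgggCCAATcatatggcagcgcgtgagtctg
Lss (chr10:76531438-76531587, plus strand): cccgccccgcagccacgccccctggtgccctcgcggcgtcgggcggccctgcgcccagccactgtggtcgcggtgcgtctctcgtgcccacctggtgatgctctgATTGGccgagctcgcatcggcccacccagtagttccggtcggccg
Lbr (chr1:181842402-181842551, minus strand): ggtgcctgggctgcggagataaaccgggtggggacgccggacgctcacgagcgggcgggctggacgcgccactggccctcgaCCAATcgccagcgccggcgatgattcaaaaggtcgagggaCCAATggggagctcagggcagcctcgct
Hmgcs1 (chr13:119690201-119690350, plus strand): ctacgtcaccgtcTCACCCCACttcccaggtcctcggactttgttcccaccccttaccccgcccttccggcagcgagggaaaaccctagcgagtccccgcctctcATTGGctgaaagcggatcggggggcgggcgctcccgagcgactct
The element string TCACNCCAC appears in Hmgcs1, 137 bases before the start, and in none of the other 6 windows. CCAAT or its reverse appears in all 7 windows. A match is a description of letters and not a binding site, and a missing match does not show that an element is absent.

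Promoter sequences were found for 24 of the 29 genes, and strings were searched on both strands of the 250 bases before each start. None was found for Fdps, Npc1, Sqle, Fdft1 and Stard4, so Npc1, which also fell with lipids, has no window above. CCAAT occurred in 22 of 24, all but Acat2 and Scap, against 40.5% of 9612 tested genes with a promoter and 33.8% of all 32851 promoters. GGGCGG, the GC box bound by SP1, occurred in 20 of 24, against 63.7% of tested genes. The sterol regulatory element TCACNCCAC occurred in 1 of 24, Hmgcs1, against 1.26% of tested genes. Without its last letter (TCACNCCA) it occurred in 3 of 24, adding Msmo1 and Srebf2, against 4.11%. Only exact strings within 250 bases were searched, so a gene without a match is not shown to lack the element. The E-box CACGTG occurred in 6 of 24, namely Hsd17b7, Sc5d, Dhcr7, Scap, Insig1 and Nceh1, against 10.1%. CCAAT was therefore shared by genes that fell, by Lbr, which rose, and by genes that did not pass the test. Of these strings, TCACNCCA lies within TCACNCCAC. Some of the strings searched were chosen after matches were seen, so these shares describe the promoters and are no test of enrichment.

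Of the 5 transport and storage genes, 4 were lower with lipids and 0 higher, against 6.87% and 4.58% of all genes. Their median log2 difference was -0.34. Soat1 (ENSMUSG00000026600, chr1:156424525-156474331, minus strand) encodes the enzyme that esterifies cholesterol in macrophages. Values are given below for replicates 1, 2 and 3 in that order. Soat1 stood at 303, 311 and 310.1 CPM with lipids and at 433, 419.6 and 449 CPM without. Every library without lipids lay above every library with lipids, and the groups did not overlap. The log2 fold change was -0.49 (SE 0.05, n = 3 and 3, edgeR adjusted p = 0.000205), a level 1.41-fold higher without lipids.

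Nceh1 (chr3:27182965-27284608, plus strand) encodes a neutral cholesteryl ester hydrolase, which works in the direction opposite to SOAT1. It measured 702, 751 and 744 CPM with lipids and 933, 903 and 850.4 CPM without. Again all libraries without lipids were higher, with the smallest gap between replicate 2 with lipids and replicate 3 without. The log2 fold change was -0.29 (SE 0.06, edgeR adjusted p = 0.00905). Leaving out replicate 1 with lipids, the lowest library, gave -0.26 and an edgeR adjusted p of 0.0615. Transcripts of the esterifying and the hydrolysing enzyme were thus both lower with lipids.

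Npc2 (chr12:84754562-84773152, minus strand) encodes the soluble lysosomal protein that binds cholesterol. It measured 985, 1003 and 994 CPM with lipids and 1245, 1322 and 1354 CPM without. No library with lipids reached the level of any library without. Its log2 fold change was -0.39 (SE 0.06, edgeR adjusted p = 0.00111). Npc1 (chr18:12189692-12236400, minus strand), the membrane protein that receives cholesterol from NPC2, measured 322, 330.4 and 332 CPM with lipids. Without lipids Npc1 measured 431, 413 and 403 CPM, so its groups did not overlap either. The log2 fold change of Npc1 was -0.34 (SE 0.05, edgeR adjusted p = 0.00219). Exons of Npc1 overlap those of Rmc1 on the opposite strand. All 6 libraries together held 47575 counts for Npc1 and 6819 for Rmc1, and without a stated strand setting the counts of the pair cannot be told apart with certainty.

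Stard4, a cytosolic carrier that moves sterols between membranes, was the remaining transport gene. It measured 108, 121 and 119 CPM with lipids and 119.5, 114 and 97.9 CPM without. The groups overlapped, and the lowest library of all was replicate 3 without lipids. The log2 difference was 0.07, with a 95% interval from -0.11 to 0.25 and an edgeR adjusted p of 0.634. Its interval does not reach the negative differences of the other 4 transport genes, though the contrast between genes was not tested.

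**Figure D2:**
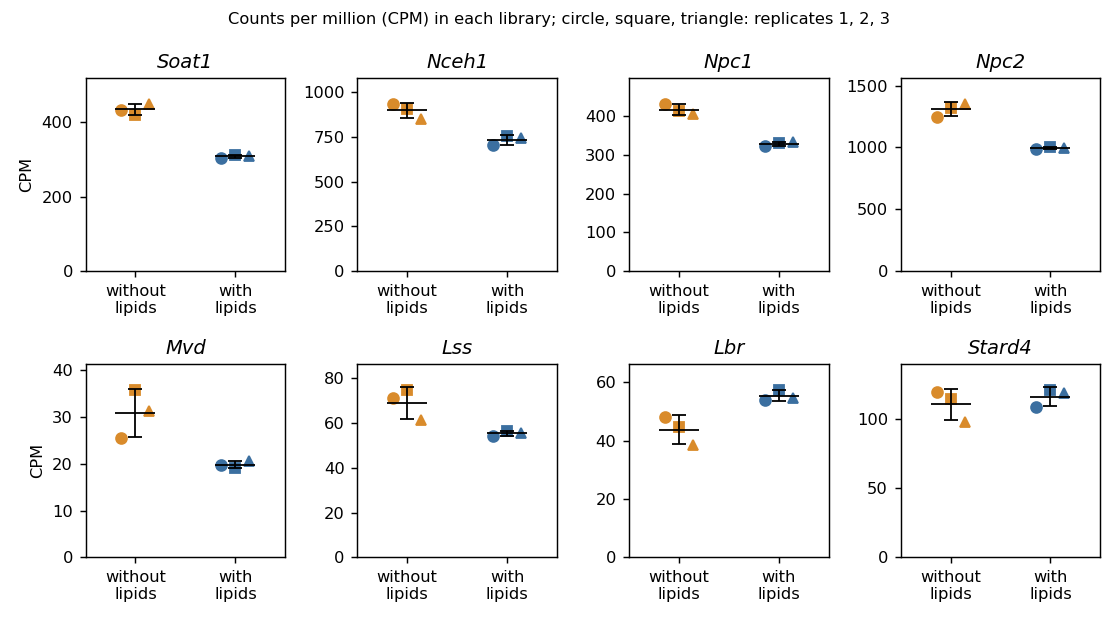
CPM of 8 genes in each library, without and with lipids, on axes that start at 0. Circles, squares and triangles are replicates 1, 2 and 3, and the lines give the mean and SD of 3 libraries. Soat1, Nceh1, Npc1, Npc2, Mvd and Lss are lower in every library with lipids, Lbr is higher in every one, and Stard4 overlaps.

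Of the 8 mevalonate and isoprenoid genes, 1 was lower with lipids and 0 were higher by edgeR and by DESeq2, against 6.87% and 4.58% of all genes by edgeR, with a median log2 difference of -0.20. At an unadjusted p under 0.05, 4 had negative differences and 0 positive ones, against 14.5% and 12.1% of all genes. The lower gene was Mvd (chr8:122433601-122443422, minus strand), the decarboxylase that makes isopentenyl diphosphate. Mvd measured 19.8, 19.03 and 20.5 CPM with lipids and 25.6, 35.9 and 31.2 CPM without. Libraries with lipids lay within 2 CPM of each other, while those without lipids spread over about 10 CPM, all of them above. Its log2 fold change was -0.64 (SE 0.11, edgeR adjusted p = 0.00457), the largest of the 29 genes in size in this fit. The 95% interval ran from -0.89 to -0.39. With GC content and gene length corrected, Mvd was at -0.47 and Soat1, at -0.57, was larger in size. Mvd has a GC content of 59.2%, the highest among the 29.

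Hmgcs1 makes HMG-CoA, the precursor of mevalonate. It measured 206, 212 and 225 CPM with lipids and 259.6, 254.5 and 218 CPM without. Replicates 1 and 2 without lipids were above all others, and replicate 3 without lipids lay among those with lipids. The log2 difference of -0.19 (SE 0.07) did not pass the test (edgeR adjusted p = 0.133). Idi1, which interconverts the isoprenoid building blocks, measured 109, 112 and 111 CPM with lipids and 124, 109 and 91.1 CPM without. Its libraries with lipids lay between the highest and lowest of those without, and the log2 difference was 0.04 (edgeR adjusted p = 0.840).

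The other 5 genes of these steps did not pass the test. Acat2, the thiolase that joins acetyl-CoA units, had a log2 difference of -0.29 and Mvk, mevalonate kinase, of -0.37 (edgeR adjusted p = 0.104 and 0.0846). Pmvk, phosphomevalonate kinase, was at -0.05 and Fdps, farnesyl diphosphate synthase, at -0.21. Ggps1, which extends farnesyl to geranylgeranyl diphosphate for protein prenylation, was at 0.09.  Several genes of these steps share 50-base words of their transcripts with other genes, so their counts are uncertain. The share was 39.1% for Acat2, 26.2% for Fdps, 25.3% for Idi1, 11.6% for Hmgcs1 and 9.58% for Ggps1. Some of the sharing genes lie at the same place in the genome. Exons of Fdps overlap those of Gm43738 on the same strand, and exons of Idi1 overlap those of Gm48574 on the opposite strand. For Mvd the share was 0%.

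Of the 12 squalene and sterol genes, 1 was lower and 1 higher with lipids, against 6.87% and 4.58% of all genes, and 11 of 12 differences were negative (median -0.17). Lss (chr10:76531588-76557138, plus strand) encodes lanosterol synthase, which folds the squalene epoxide into the first sterol. Lss measured 54.2, 56.3 and 55.7 CPM with lipids and 71.4, 74.9 and 61.2 CPM without. All libraries without lipids were higher, replicate 3 least so. The log2 fold change was -0.32 (SE 0.08, edgeR adjusted p = 0.0252). This call was lost with library totals as the only scaling (-0.24, edgeR adjusted p = 0.0617). It was also lost when any of the 3 libraries with lipids or replicate 2 without lipids was left out (edgeR adjusted p from 0.0918 to 0.114).

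Lbr (chr1:181815335-181843046, minus strand) moved the other way. Its protein anchors chromatin at the inner nuclear membrane and also reduces the sterol carbon-14 double bond. It measured 53.8, 57.5 and 54.7 CPM with lipids and 48.2, 44.7 and 38.5 CPM without. The groups did not overlap, and replicate 3 without lipids was the lowest. The log2 fold change was 0.34 (SE 0.08, edgeR adjusted p = 0.0254). As with Lss, the call was lost when any 1 library with lipids, or replicate 2 without lipids, was left out (edgeR adjusted p from 0.0798 to 0.128). Tm7sf2, the second gene for a sterol carbon-14 reductase, had a log2 difference of -0.12 (edgeR adjusted p = 0.562). It shares exons with Vps51 on the same strand and was the least abundant of the 29 genes per exon length.

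Squalene epoxidase, encoded by Sqle, is an oxygen-dependent and tightly controlled step. Sqle measured 140, 146 and 147 CPM with lipids and 180, 173 and 136 CPM without. Replicates 1 and 2 without lipids were the highest and replicate 3 without lipids the lowest of all 6, and the log2 difference of -0.17 did not pass (edgeR adjusted p = 0.267). Cyp51, the demethylase that acts on lanosterol, measured 115, 121 and 118 CPM with lipids and 146, 139 and 111 CPM without. As for Sqle, replicates 1 and 2 without lipids were the highest and replicate 3 without lipids the lowest, with a log2 difference of -0.16 (edgeR adjusted p = 0.303). Dhcr7, which completes cholesterol in the last step of one branch, measured 35.7, 38.2 and 34.6 CPM with lipids and 39.4, 46.6 and 39.7 CPM without. All of its libraries without lipids were above those with lipids by a narrow margin, and the log2 difference of -0.21 did not pass (edgeR adjusted p = 0.136).

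The remaining 6 sterol genes were not called. Msmo1, an oxidase that starts removal of a methyl group, came closest at -0.23 (edgeR adjusted p = 0.0653). With GC content and gene length corrected it passed, at -0.32 (edgeR adjusted p = 0.00551). Fdft1, squalene synthase, was at -0.17, Hsd17b7, a keto-reductase, at -0.19, and Sc5d, a desaturase, at -0.17. Nsdhl, a sterol dehydrogenase, was at -0.10 and Ebp, a sterol isomerase, at -0.01. Exons of Fdft1 overlap those of Ctsb, a cathepsin gene on the opposite strand with 1785096 counts against 7645 for Fdft1, and exons of Cyp51 overlap those of Akap9. Since no source used here gives the strand setting of the counting, values for Fdft1 and Cyp51 are uncertain, as are those of Npc1, which overlaps Rmc1, and of Ggps1, whose exons overlap those of Arid4b on the opposite strand (2877 counts for Ggps1 and 6719 for Arid4b).

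Among the 4 sensing genes, 0 were lower and 0 higher by the adjusted test, against 6.87% and 4.58% of all genes. At an unadjusted p under 0.05, 1 had a negative difference (Srebf2) and 0 a positive one, against 14.5% and 12.1% of all genes. DESeq2 also called 0 of the 4. Insig1, the retention protein that is itself an SREBP target, measured 170.3, 180.4 and 185 CPM with lipids and 208, 221 and 176 CPM without. Replicate 3 without lipids lay among the libraries with lipids, while replicates 1 and 2 lay above, and the log2 difference was -0.18 (edgeR adjusted p = 0.191). Insig2, the second retention protein, measured 41.9, 45.0 and 42.0 CPM with lipids and 45.1, 39.2 and 42.2 CPM without. Its libraries with lipids lay within the range of those without, with a log2 difference of 0.03 and a 95% interval from -0.14 to 0.19.

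Srebf2, the gene of SREBP2, measured 192, 176 and 184 CPM with lipids and 188, 245 and 204 CPM without. Replicate 2 without lipids stood highest, and replicate 1 without lipids lay below replicate 1 with lipids. The log2 difference was -0.21 (edgeR adjusted p = 0.169). Scap measured 31.7, 33.6 and 32.04 CPM with lipids and 32.1, 40.25 and 34.9 CPM without. Its libraries without lipids took the same order as those of Srebf2, and the log2 difference was -0.14 (edgeR adjusted p = 0.353). SREBP2 and SCAP act through cutting and movement of protein, which transcript counts do not measure.

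The 20 synthesis genes (mevalonate, isoprenoid, squalene and sterol steps) thus gave 2 lower and 1 higher, against 6.87% and 4.58% of all genes, with 17 negative differences and a median of -0.17. The groups did not overlap, with lipids lower, for 11 of the 29 genes, against 15.8% of all genes, and with lipids higher for 1, against 14.7%. At an unadjusted p under 0.05 there were 13 lower and 1 higher, against 14.5% and 12.1% of all genes.

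The spread among libraries without lipids took several forms, described here with no test between gene groups. Over the 12 squalene and sterol genes, the median log2 deviation from the mean of 6 libraries was -0.10, -0.05 and -0.07 with lipids and 0.18, 0.17 and -0.05 without. Replicate 3 without lipids thus lay beside the libraries with lipids for these genes. Over the 8 mevalonate and isoprenoid genes the median was -0.12, -0.11 and -0.03 with lipids and 0.03, 0.21 and 0.04 without, and replicate 2 without lipids stood highest. For the 5 transport genes the same median was -0.21, -0.16 and -0.15 with lipids and 0.20, 0.16 and 0.13 without, and all 3 replicates without lipids were on the high side. Among the 29 genes, the SD of log2 CPM was larger without lipids for 27, as it was for 74.1% of all genes.

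**Figure D3:**
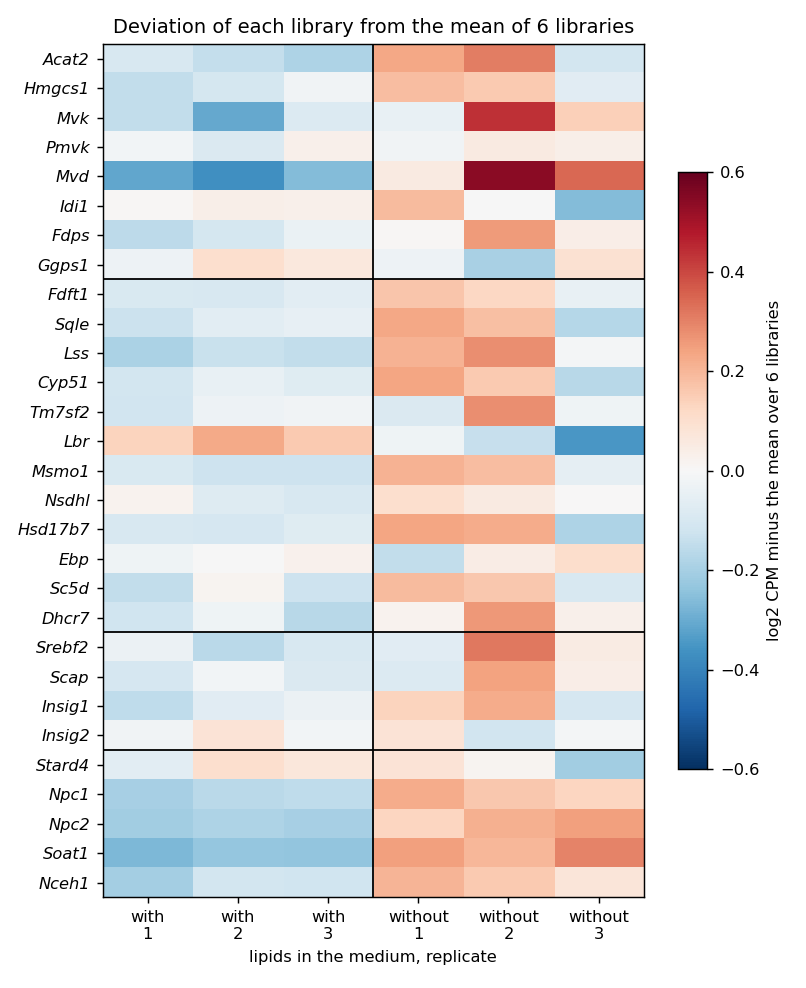
Log2 CPM of each gene in each library minus its mean over 6 libraries, with genes in rows by role and libraries in columns (red above, blue below the mean). Soat1, Npc1, Npc2 and Nceh1 are red in all 3 libraries without lipids, while many squalene and sterol genes are red in replicates 1 and 2 and blue in replicate 3.

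Without lipids, replicate 3 was the lowest library for 16 of the 29 genes (34.2% of all genes), including Hmgcs1, Sqle, Lss, Cyp51, Insig1 and Npc1. Replicate 1 was the lowest for 10 (39.5% of all genes), including Mvd, Mvk, Dhcr7, Srebf2 and Scap, and replicate 2 for 3 (26.3% of all genes). These sets differed in base composition, with a median GC content of 46.3% for the 16 genes and 55.4% for the 10, against 49.7% over all tested genes. The part of GC content in this pattern was not tested. With GC content and gene length corrected, 9 of the 29 genes were lower and 1 higher, against 9.76% and 6.59% of all genes. The genes gained under this correction were Hmgcs1, Msmo1 and Sc5d.

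Leaving out replicate 3 without lipids changed the number of lower genes from 6 to 15 and left 1 higher, against 6.69% lower and 5.01% higher over all genes. The genes gained were Acat2, Hmgcs1, Fdft1, Sqle, Cyp51, Msmo1, Hsd17b7, Sc5d and Insig1, with log2 fold changes from -0.41 (Acat2) to -0.23 (Fdft1). Leaving out replicate 1 without lipids gave 9 lower and 1 higher, gaining Mvk, Dhcr7 and Srebf2, against 15.1% and 12.0% of all genes. Leaving out replicate 1, 2 or 3 with lipids gave 4, 5 and 5 lower, against 3.67%, 3.27% and 3.75% of all genes, and 0 higher, against 2.03%, 1.69% and 1.87%. Leaving out replicate 2 without lipids gave 5 lower and 0 higher, against 3.69% and 1.87%. Soat1, Npc1, Npc2 and Mvd passed in all 6 of these fits, Nceh1 in 5 and Lss and Lbr in 2 each.

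**Figure D4:**
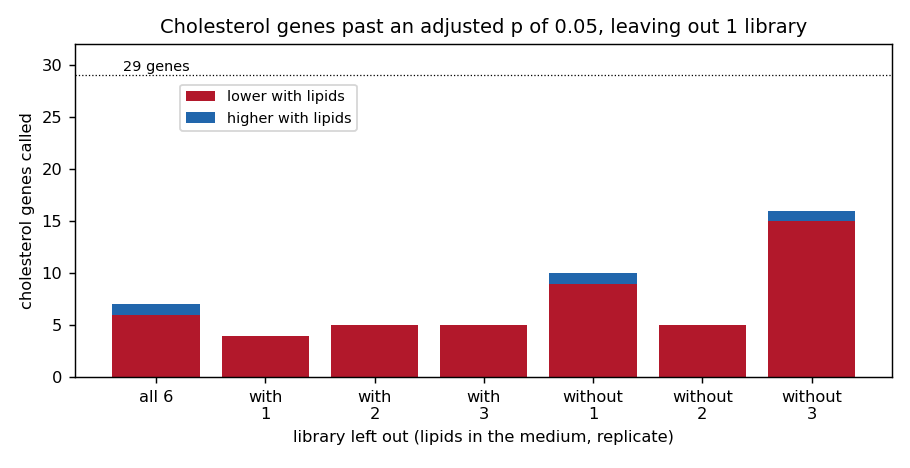
Number of the 29 genes past an edgeR adjusted p of 0.05, lower or higher with lipids, in the fit of all 6 libraries and in 6 fits that each left out 1 library. The count of lower genes was 15 when replicate 3 without lipids was left out and 4 when replicate 1 with lipids was.

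Levels were compared between genes per exon length, as CPM divided by exon length in kilobases (RPKM). Npc2 was highest, at 183 ± 1.64 RPKM with lipids and 240.3 ± 10.3 without (SD, n = 3), and Nceh1 followed at 139 ± 5.06 and 170.5 ± 7.99. Insig1 came next at 57.7 ± 2.42 and 65.3 ± 7.42, and then Hmgcs1 at 46.6 ± 2.08 and 53.1 ± 4.98. Without lipids the ranges of Insig1 and Hmgcs1 met within their SD, and with lipids they did not. Soat1, at 31.5 ± 0.44 with lipids, was close to Msmo1 and Idi1, whose means were 32.2 and 31.6. Without lipids Soat1 stood above them, at 44.3 ± 1.52 against 37.8 for Msmo1 and 30.8 for Idi1. The lowest levels were those of Fdps, 2.69 ± 0.11 with lipids, and Tm7sf2, 2.22 ± 0.08. Exons of Fdps overlap those of Gm43738 on the same strand, with 1562 counts for Fdps and 0 for Gm43738 over all libraries. Tm7sf2 shares exons with Vps51, so the low levels of both genes may reflect the counting and are uncertain. Npc2, Nceh1, Soat1 and Npc1, from the list for transport, esterification and ester hydrolysis, thus held 4 of the 7 highest levels per length. Lengths are those of all annotated exons joined, whether or not these cells use them, so the order of levels depends on the annotation.

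**Figure D5:**
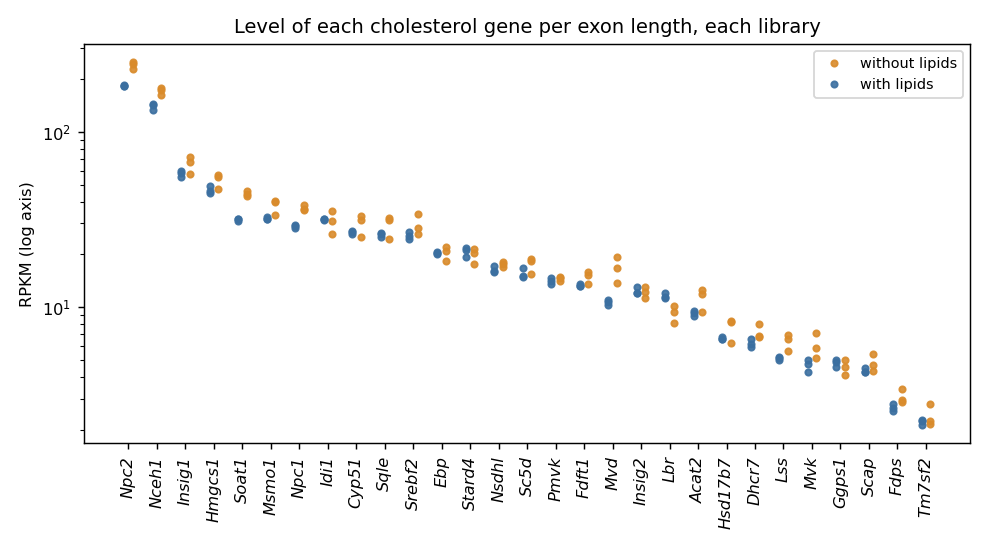
Level per exon length (RPKM, log axis) of the 29 genes in each library, in order of the mean over 6 libraries. Npc2 and Nceh1 stand above all others in both groups, and Fdps and Tm7sf2 are lowest. Fdps and Tm7sf2 each share exons with another gene on the same strand, so their levels are uncertain.

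Other genes of the sterol pathways were read from 4 fixed lists of 55 genes, 52 of them tested. These lists too were chosen with earlier results of these data known. With lipids, 4 of the 52 were lower and 1 was higher, shares near or below the 6.87% and 4.58% of all genes, and the median log2 difference was 0.01. Of 13 genes that use isoprenoids for ubiquinone, dolichol or protein prenylation, 0 were called by edgeR or DESeq2. At an unadjusted p under 0.05 there was 1 in each direction, against 14.5% lower and 12.1% higher over all genes. Of 18 genes for SREBP processing and sterol-regulated protein degradation, 1 was lower and 1 higher. Rnf145, a ubiquitin ligase of the endoplasmic reticulum, measured 70.8, 67.8 and 69.0 CPM with lipids and 54.8, 57.2 and 58.9 CPM without. It was higher in every library with lipids (log2 fold change 0.28, SE 0.06, edgeR adjusted p = 0.0138). Tmem97, a membrane protein that binds NPC1, was lower at -0.24 (edgeR adjusted p = 0.0477), a call lost with DESeq2 (adjusted p = 0.0646) and under each of the 6 other settings that kept all libraries (edgeR adjusted p from 0.0537 to 0.14).

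Of 18 genes for sterol transfer and carriage, 3 were lower and 0 higher, against 6.87% and 4.58% of all genes. Lipa, the lysosomal acid lipase that frees cholesterol from lipoprotein esters upstream of NPC2, measured 1951, 2058 and 2003 CPM with lipids and 2860, 2631 and 2556 CPM without. Its groups were far apart, and the log2 fold change was -0.42 (SE 0.06, edgeR adjusted p = 0.0014). Lamp1, a lysosomal membrane protein, was lower at -0.30 (edgeR adjusted p = 0.00619), and at 0.0507 without replicate 3 with lipids. Lamp2, of the same list, was not called (-0.09, edgeR adjusted p = 0.329), and its groups overlapped. Stard5, a relative of Stard4, was lower at -0.26 (edgeR adjusted p = 0.0431), and passed in 1 of the 6 fits that left out a library. Rnf145 and Tmem97 passed in 2 of them each. Of 6 oxysterol enzymes, 3 had enough counts to be tested, and edgeR and DESeq2 called 0. At an unadjusted p under 0.05 there was 1 in each direction, against 14.5% lower and 12.1% higher over all genes. Lipa, Npc2 and Npc1, which are known to act in turn on cholesterol in the lysosome, were thus all lower with lipids. The fall was not particular to these genes. Lamp1 and the macrophage marker Cd68 (log2 fold change -0.55, edgeR adjusted p = 0.000306) were lower too, while Lamp2 was not called.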

How the data were processed

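The authors deposited 1 table of raw counts by Ensembl identifier for each of 6 libraries. The kit was stranded and selected poly(A) RNA, per the labels' protocols. TopHat2 2.1.0, HTSeq, DESeq2 and build GRCm38.p4 are named per the submitters' processing notes, without roles. No source used here gives the annotation release or strand setting. Each table held 46603 genes and 0 lines of unassigned reads. GENCODE M21 matched 46091 identifiers and left 512, with 0.129% to 0.142% of counts.

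Tests used edgeR 4.0.16 (R 4.3.3): filterByExpr (minimum count 10, total 15), TMM scaling, a two-sided quasi-likelihood F test and Benjamini-Hochberg adjustment over 12767 genes at 0.05. The code was tested on simulated data. CPM used TMM factors, and RPKM divided it by joined exon length. Alternatives were DESeq2 1.42.0, other scalings, no filter, GC content and length correction, a replicate block and each library left out.

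The members and lists were chosen with earlier results of these data known. Library values are given for each called member and a fixed panel, and other genes are named from the lists. Of 10 promoter strings searched, some were chosen after matches were seen, and those not described occurred in 0 to 5 promoters. Intervals cover the spread between libraries. Some genes of cholesterol uptake and synthesis are not reported here.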

Additional observations from a re-analysis of the deposited data

How the results depend on the processing

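The calls of the 29 genes were the same 7 with median-of-ratios scaling, DESeq2 and the replicate block. Same-numbered libraries of the 2 groups correlated at -0.01, -0.09 and 0.18 in their deviations, not every library correlated best with its own number, and the numbers were not taken to pair libraries. With the replicate block, the other sterol genes had 2 lower, against 7.34% of all genes.

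With library totals alone there was 1 lower synthesis gene, and other sterol genes had 2 lower and 3 higher. Over all genes, 4.67% were lower and 9.72% (1241 genes) higher. That scaling moved the median of all genes from -0.003 to 0.07 and that of the 29 genes from -0.18 to -0.10. Without the low-count filter, 10 of the 29 and 5 synthesis genes were lower, against 5.42% of all genes. The genes gained were Acat2, Msmo1, Mvk and Srebf2. In the same fit 2 other sterol genes were higher, against 4.4% of all genes (1009 genes). The correction for GC content and length gave 5 lower synthesis genes, and 8 lower and 2 higher other sterol genes. Over all genes that correction gave 9.76% lower and 6.59% higher. The same correction with the replicate block gave 13 lower genes of the 29 and 8 lower synthesis genes. The genes gained were Acat2, Cyp51, Dhcr7, Hmgcs1, Insig1, Msmo1 and Sc5d. Other sterol genes had 8 lower and 2 higher. Over all genes this fit gave 1377 lower (10.8%) and 1035 higher (8.14%).

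Leaving out each library in turn gave 4 to 15 lower and 0 to 1 higher of the 29, 1 to 10 lower and 0 to 1 higher synthesis genes, and 1 to 8 lower and 0 to 2 higher other sterol genes. Over all genes it gave 423 to 1975 lower and 219 to 1566 higher. The upper ends for lower genes came from different fits. Leaving out replicate 3 without lipids gave 15 lower of the 29 and 866 of all genes (6.69%). Leaving out replicate 1 without lipids gave 9 lower of the 29 and 1975 of all genes (15.1%). The cause was not tested.

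Signs changed for 6 genes that were never called. Pmvk was at 0.027 with library totals, 0.051 with the GC content and length correction and 0.052 with that correction and the replicate block. Idi1 was at -0.049 and -0.045 under these corrections and from -0.069 to 0.15 over the fits without 1 library. Ggps1 was at -0.0036 with the GC content and length correction. Ebp was at 0.0008 with median-of-ratios scaling, 0.072 with library totals, 0.0021 with the correction and the replicate block, and from -0.072 to 0.053 without 1 library. Insig2 was at -0.016 under both corrections and from -0.022 to 0.082 without 1 library. Stard4 was at -0.0054 and -0.0041 under them and from -0.0082 to 0.13 without 1 library. With 3 libraries a group and a larger spread without lipids, a difference that did not pass is not shown to be absent.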
